A study of Homo sapiens with 22 samples.

Results

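RMC-7977, a compound that inhibits the active forms of RAS proteins, was compared directly with trametinib, an inhibitor of the kinases MEK1 and MEK2, in tumours grown from the human cell line H2110. The comparison took the 4 tumours labelled RMC-7977 and the 4 labelled trametinib, 8 of the 22 tumours in the series. Of the 58735 genes in the count table, the 17652 that passed a filter on low counts were tested. Differences are RMC-7977 minus trametinib throughout, so a positive log2 fold change means a higher level under RMC-7977.

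RAS proteins are switches that, when bound to GTP, start the cascade of RAF, MEK and ERK kinases. They also feed other routes, among them PI3K. MEK inhibitors stop that cascade at MEK, below RAS and RAF. In lung adenocarcinoma the cascade drives transcription of feedback genes such as the DUSP and SPRY families and of ETS factors such as ETV4 and ETV5, which are widely read as ERK output.

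H2110 is a lung adenocarcinoma line, and its tumours carried the genotype label WT in every group. RMC-7977 was dosed at 10 mg/kg and trametinib at 0.3 mg/kg, both by mouth for 3 days from a tumour volume of about 300 mm3. The 6 Vehicle tumours, dosed for the same 3 days, serve here as a common background. All groups share the one cell line, so the results describe H2110 only, and the host species is not given in the sources used here. Each drug was given at a single dose, so a difference holds for these doses. The labels do not say whether the tumours of a group came from separate animals. The spread behind the p-values is that between tumours within all 5 groups of the series, and it may be technical.

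The total count was 10353740 to 15005429 in RMC-7977 tumours, 7761987 to 13133140 in trametinib tumours and 11160546 to 17265754 in Vehicle tumours. Within each drug group, 1 library stood apart from the rest. In trametinib tumour 4, 1.99% of the detected genes had 1 or 2 counts, against 19.1% to 19.9% in the other 3, and ribosomal protein genes took 25% of its counts, against 3.93% to 6.58%. In RMC-7977 tumour 3, 5.02% of the detected genes had 1 or 2 counts, against 18.5% to 18.7% in the other 3. Results of the direct comparison are therefore given with and without these 2 libraries. The rank correlation of gene GC content with a library's levels, relative to the mean library, also varied. It was 0.0957, 0.154, -0.416 and 0.332 in RMC-7977 tumours 1 to 4, and -0.474, -0.401, 0.0592 and -0.0961 in trametinib tumours 1 to 4. Without the 2 libraries every RMC-7977 value lay above every trametinib value. A fit of all tumours with a GC correction is given at the end. Epithelial markers (EPCAM, CDH1, KRT7, KRT8, KRT18, KRT19) summed to 3940 to 5980 CPM (the count scaled by the library's normalised total) in RMC-7977 tumours and 3870 to 4840 CPM in trametinib tumours. Alveolar type 2 markers summed to 461 to 824 CPM and 295 to 747 CPM under RMC-7977 and under trametinib, with SFTPC, the defining surfactant gene of that cell type, below the filter. Values listed for a drug group run from tumour 1 to tumour 4.

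The edgeR model was fitted to all 22 tumours, so that all 5 groups share the estimate of spread. With all 8 tumours of the comparison in it, 72 of 17652 genes (0.408%) passed edgeR's quasi-likelihood test at a Benjamini-Hochberg adjusted p under 0.05. These are the genes said below to have risen or fallen. Of them 22 (0.125%) were higher and 50 (0.283%) lower in RMC-7977 tumours, and 3205 genes (18.2%) had an unadjusted p under 0.05. Without RMC-7977 tumour 3 and trametinib tumour 4, 42 of 17856 genes (0.235%) were called, 17 higher (0.0952%) and 25 lower (0.14%). In both sets were 25 genes, 11 higher and 14 lower, and 71 of the 72 genes kept their sign. The 4 RMC-7977 tumours did not overlap the 4 trametinib tumours in 64 of the 72 called genes, and in 6.14% of all genes tested. For scale, 0.748% of the genes passed between RMC-7977 and the 6 Vehicle tumours, while edgeR called 0 between trametinib and Vehicle, where 3327 genes (18.8%) had an unadjusted p under 0.05. Both of those comparisons share the Vehicle tumours, and their values are given below side by side only. RMC-7977 tumour 3 and trametinib tumour 4 are kept in them, and no values against Vehicle without these 2 libraries are given. Fitted to the 8 tumours alone, the direct comparison called 0 genes in edgeR, with a smallest adjusted p of 0.326. That fit without the 2 libraries called 389.

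Each further omission moved the count of calls. Without RMC-7977 tumour 1 or tumour 2 no gene passed edgeR's test, with 2633 and 2725 genes at an unadjusted p under 0.05. Without RMC-7977 tumour 4 only RHOA and ETV5 passed, and without RMC-7977 tumour 3 there were 22 calls. Leaving out trametinib tumour 1, 2 or 3 gave 420, 607 and 1288 calls, and each of those sets held all 72 genes. Leaving out trametinib tumour 4 gave 28 calls. Of the 72 genes, 17 passed without RMC-7977 tumour 3 and 23 without trametinib tumour 4. The 17 were ALDH3A1, CYP4V2, DAPK1, DENND3, FAM177B, GPR141, HSPB1, KRT15, LAPTM5, MVD, PECAM1, PRKAR2B, PUS7, RHOA, RPTN, STPG3 and TSC22D3. The 23 were DAPK1, HSPB1, KRT15, LAPTM5, PRKAR2B, RHOA, RPTN and TSC22D3 again, with AKTIP, AL162582.1, CYP24A1, ETV4, HMGB3, KLF3, MILR1, PAPPA, PTGS1, SHLD1, SYTL5, TCTA, TTC26, VSIG1 and YIF1A. Trametinib tumour 4 was the highest trametinib tumour in 40 of the 50 lower genes, against 33.5% of all genes tested, and the lowest in 18 of the 22 higher genes, against 54.9%. The called genes described in full below are therefore given with and without these libraries.

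**Figure D1:**
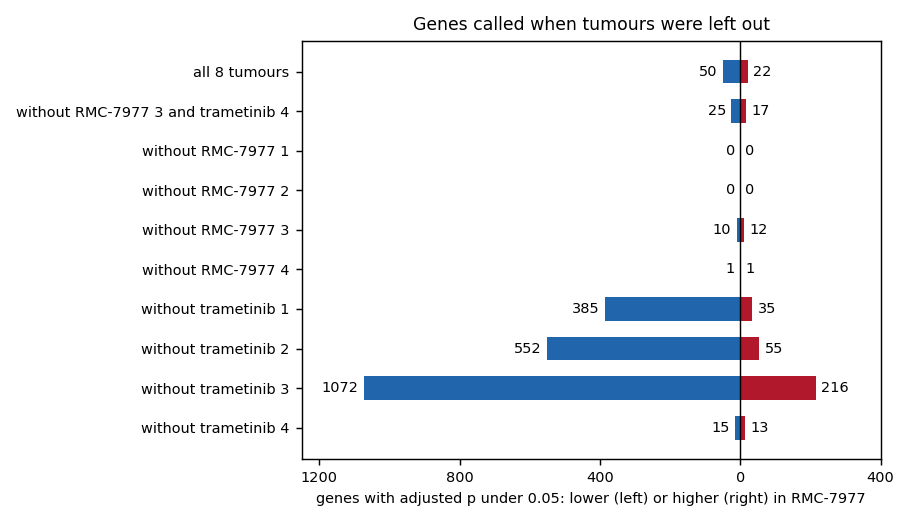
Number of genes with an edgeR adjusted p under 0.05 (x axis), lower in RMC-7977 to the left of 0 and higher to the right, with all 8 tumours, without both libraries that stood apart, and without each tumour in turn. Counts ran from 0 without RMC-7977 tumour 1 or 2 to 1288 without trametinib tumour 3. All are from models that also held the tumours of the other groups.

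**Figure D2:**
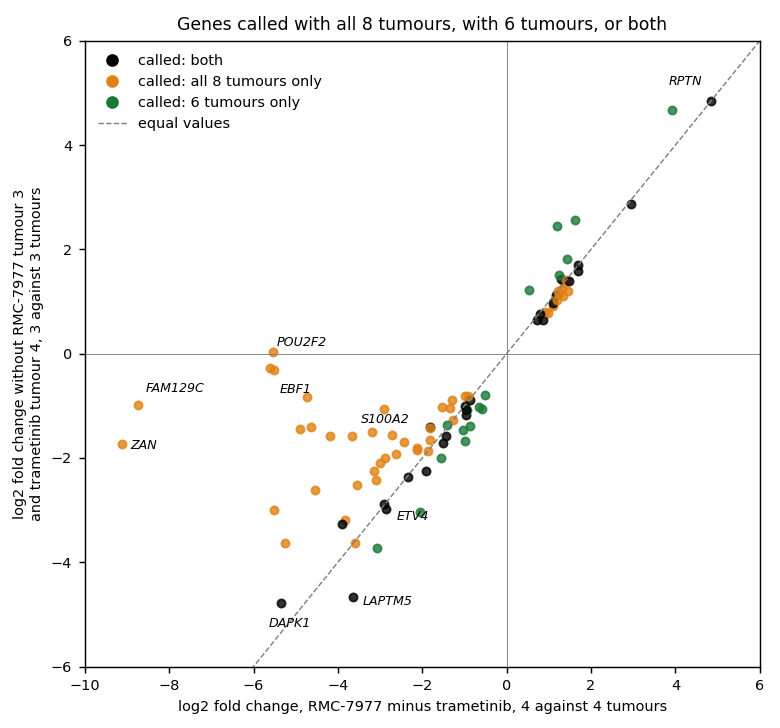
Log2 fold change (RMC-7977 minus trametinib) of each called gene with 4 against 4 tumours (x axis) and with 3 against 3, leaving out RMC-7977 tumour 3 and trametinib tumour 4 (y axis); black genes were called both ways, orange ones with all 8 but not with 6 and green ones with 6 but not with all 8. Points near the dashed line had equal values, and ZAN, FAM129C, EBF1 and POU2F2 lie far from it.

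Of the 25 genes that passed both with and without the 2 libraries, the 11 higher ones are HSPB1, TSC22D3, KRT15, RHOA, MVD, DENND3, RPTN, STPG3, KLF3, YIF1A and BTBD6. RPTN, which encodes repetin, a protein of the cornified envelope, had 3.91, 4.59, 1.36 and 1.798 CPM in RMC-7977 tumours, against 0, 0.266, 0.0814 and 0 CPM in trametinib tumours. With trametinib tumours at or near 0 and below every RMC-7977 tumour, the fitted log2 fold change of 4.84 ± 0.92 (SE; edgeR adjusted p = 0.0273) depends on the prior count. Without the 2 libraries that of RPTN was 4.84 (edgeR adjusted p = 0.023). KLF3, a repressor of the KLF family, had 133, 134, 134 and 121 CPM in RMC-7977 tumours, against 83.1, 78.5, 86.7 and 37.8 CPM in trametinib tumours. Its RMC-7977 tumours were close together and above all trametinib tumours, at 0.86 (edgeR adjusted p = 0.0418), or 0.64 (edgeR adjusted p = 0.0488) without the 2 libraries. YIF1A, a protein of traffic between the endoplasmic reticulum and the Golgi, had 0.79 (edgeR adjusted p = 0.0273), BTBD6 0.73 (edgeR adjusted p = 0.0491) and STPG3 2.96 (edgeR adjusted p = 0.0313). STPG3 was at low levels, with at most 0.527 CPM in trametinib tumours.

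The 14 lower ones of the 25 are CYP24A1, ETV4, PAPPA, LAPTM5, PECAM1, DAPK1, VSIG1, GPR141, SHLD1, CYP4V2, PUS7, PRKAR2B, TTC26 and HMGB3. HMGB3, a chromatin protein, had 193, 262, 211 and 219.6 CPM in RMC-7977 tumours, against 370.5, 445, 439.9 and 354 CPM in trametinib tumours. No RMC-7977 tumour reached the lowest trametinib tumour, with a log2 fold change of -0.86 ± 0.17 (SE; edgeR adjusted p = 0.0313). PUS7, a pseudouridine synthase, had 25.2, 25.2, 29.5 and 18.8 CPM in RMC-7977 tumours, against 54.3, 48.4, 36.5 and 56.6 CPM in trametinib tumours, likewise without overlap and at -0.99 ± 0.20 (SE; edgeR adjusted p = 0.0313). DAPK1, a death-associated protein kinase, had 0, 0, 0.085 and 0.0692 CPM in RMC-7977 tumours, against 0.8286, 0.709, 1.38 and 5.44 CPM in trametinib tumours. The RMC-7977 tumours were at or near 0, so its fitted -5.34 ± 0.90 (SE; edgeR adjusted p = 0.0271) depends on the prior count too. Without the 2 libraries HMGB3 had -0.897 (edgeR adjusted p = 0.0488), PUS7 -1.01 (edgeR adjusted p = 0.0488) and DAPK1 -4.78 (edgeR adjusted p = 0.0324). CYP4V2, a fatty acid hydroxylase, had -1.44 (edgeR adjusted p = 0.0313), SHLD1, a subunit of the shieldin complex of DNA repair, -1.81 (edgeR adjusted p = 0.0273), VSIG1, an adhesion molecule, -3.90 (edgeR adjusted p = 0.0271) and the orphan receptor GPR141 -2.91 (edgeR adjusted p = 0.0313). VSIG1 and GPR141 were near the floor, with at most 0.317 and 0.935 CPM in RMC-7977 tumours. With RMC-7977 tumour 1, 2 or 4 left out, the edgeR adjusted p of RPTN, KLF3, HMGB3, PUS7 and DAPK1 was 0.0825 to 0.13.

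Among the rises under RMC-7977 were a heat shock protein, a steroid-response gene, a basal keratin and a small GTPase. HSPB1, TSC22D3, KRT15 and RHOA were higher in all 4 RMC-7977 tumours than in any trametinib tumour, with log2 fold changes between 1.09 and 1.69, and each was called with and without the 2 libraries. In bulk tumours, fewer cells of a type and less RNA per cell cannot be told apart, for these genes and all those below.

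HSPB1 (ENSG00000106211, hg38 chromosome 7, 76302544 to 76304295, plus strand) encodes a small heat shock protein, a chaperone that also binds actin. It had 283, 290.2, 140.4 and 197 CPM in RMC-7977 tumours, against 75.03, 78.7, 84.4 and 43.8 CPM in trametinib tumours. The groups did not overlap, and RMC-7977 tumour 3 was the lowest of its group. The log2 fold change was 1.69 ± 0.30 (SE; edgeR adjusted p = 0.0271), and 1.69 ± 0.30 (SE; edgeR adjusted p = 0.023) without the 2 libraries. Against the 6 Vehicle tumours, which both drug comparisons share, HSPB1 had log2 fold changes of 1.33 ± 0.26 (SE; edgeR adjusted p = 0.015) for RMC-7977 and -0.36 ± 0.27 (SE; edgeR adjusted p = 0.454) for trametinib.

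TSC22D3 (ENSG00000157514, hg38 chromosome X, 107713221 to 107777342, minus strand) encodes the glucocorticoid-induced leucine zipper and is also a FOXO target. Its levels were 582, 459, 376 and 457 CPM in RMC-7977 tumours, against 158, 182, 159.6 and 82.7 CPM in trametinib tumours. All RMC-7977 tumours lay above all trametinib tumours, and the Vehicle range was 81.3 to 173 CPM (median 108). The log2 fold change was 1.69 ± 0.28 (SE; edgeR adjusted p = 0.0271), and 1.59 (edgeR adjusted p = 0.023) without the 2 libraries. Set against Vehicle, its log2 fold changes were 1.96 ± 0.25 (SE; edgeR adjusted p = 0.000325) for RMC-7977 and 0.27 ± 0.25 (SE; edgeR adjusted p = 0.552) for trametinib.

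KRT15 (ENSG00000171346, hg38 chromosome 17, 41513743 to 41522529, minus strand), a type I keratin of basal epithelial cells, had 20.02, 22.9, 21.6 and 23.7 CPM in RMC-7977 tumours, against 9.12, 9.48, 11.97 and 8.48 CPM in trametinib tumours. The groups did not overlap, and the RMC-7977 tumours were close to each other. It rose by a log2 fold change of 1.17 ± 0.21 (SE; edgeR adjusted p = 0.0273), and 1.12 (edgeR adjusted p = 0.0488) without the 2 libraries. KRT15 was the only one of 13 tested keratins to be called, and the median of the 13 was -0.36, with 5 above 0.

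RHOA, which encodes the GTPase that controls actin stress fibres, had the smallest p of all genes and was singled out after its values were seen (ENSG00000067560, hg38 chromosome 3, 49359145 to 49412998, minus strand). It had 897, 1067, 907 and 779 CPM in RMC-7977 tumours, against 443, 462, 500.3 and 309 CPM in trametinib tumours, and 304 to 437 CPM (median 390.3) in Vehicle tumours. Neither the trametinib nor the Vehicle range reached the RMC-7977 range. The difference was a log2 fold change of 1.09 ± 0.17 (SE; edgeR adjusted p = 0.0271), and 0.96 (edgeR adjusted p = 0.0221) without the 2 libraries. For HSPB1, TSC22D3 and KRT15, edgeR adjusted p was 0.0762 to 0.101 with RMC-7977 tumour 1, 2 or 4 left out. RHOA had 0.0774, 0.0762 and 0.023 with those 3 left out in turn.

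**Figure D3:**
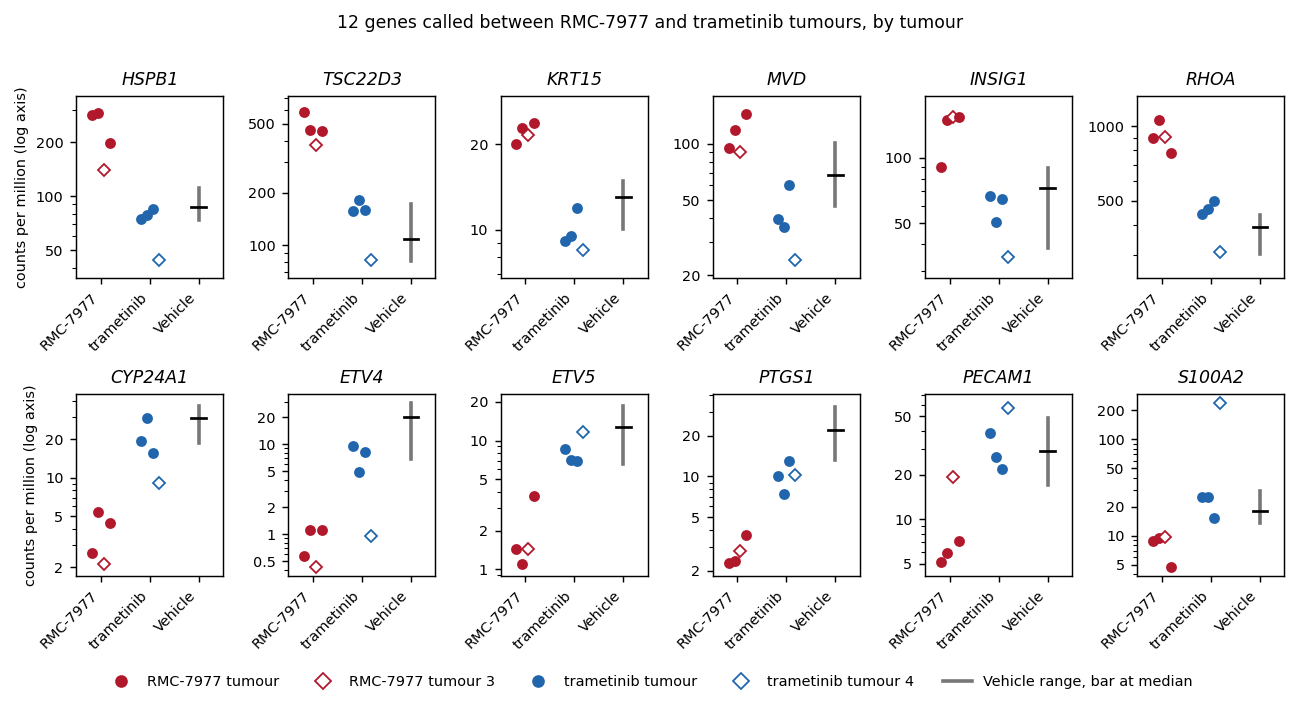
CPM (log axis) of 12 called genes in each RMC-7977 tumour (red), each trametinib tumour (blue) and over the 6 Vehicle tumours (grey line from lowest to highest, black bar at the median); open diamonds are RMC-7977 tumour 3 and trametinib tumour 4. The drug groups do not overlap for 11 of the 12 genes, the exception being ETV4, where trametinib tumour 4 (0.960) lies among the RMC-7977 tumours.

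Genes of cholesterol synthesis leaned towards higher levels under RMC-7977. Of 24 genes tested, MVD and INSIG1 rose and none fell, 22 had a log2 fold change above 0, and the median was 0.83, against 0.02 over all genes tested. In 7 of the 24, all RMC-7977 tumours lay above all trametinib tumours, which 3.22% of all genes did, and in none of them were all below. The pathway makes sterols from acetyl-CoA through mevalonate and is switched on by the factor SREBP2 when sterols in the endoplasmic reticulum run low. NFY, which binds CCAAT boxes, is a partner of SREBP2 at such promoters.

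The promoters of both called genes are shown because these genes rose together and CCAAT boxes are a known feature of this pathway's promoters. The sequences are RefSeq's, GRCh38.p14, from 250 bases before to 50 after the start, 5' to 3' on the gene's strand, with each CCAAT, on either strand, and each CACGTG in capitals.
MVD: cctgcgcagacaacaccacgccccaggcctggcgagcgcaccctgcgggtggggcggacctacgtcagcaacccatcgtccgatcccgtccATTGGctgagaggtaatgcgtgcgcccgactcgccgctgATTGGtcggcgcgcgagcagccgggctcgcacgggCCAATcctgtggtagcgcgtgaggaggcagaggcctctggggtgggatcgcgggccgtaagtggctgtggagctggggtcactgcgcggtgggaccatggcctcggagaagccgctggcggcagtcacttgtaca
INSIG1: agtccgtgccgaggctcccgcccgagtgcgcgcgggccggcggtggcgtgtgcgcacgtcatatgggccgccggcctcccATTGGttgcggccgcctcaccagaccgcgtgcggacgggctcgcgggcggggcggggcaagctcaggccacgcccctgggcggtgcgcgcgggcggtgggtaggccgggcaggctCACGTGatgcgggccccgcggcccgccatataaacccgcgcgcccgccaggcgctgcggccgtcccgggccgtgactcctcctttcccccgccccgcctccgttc
The MVD window is chr16:88663042-88663341 on the minus strand and the INSIG1 window chr7:155297628-155297927 on the plus strand. CCAAT was found 3 times in the MVD window and 1 time in that of INSIG1, which also held CACGTG 1 time. Among all 35116 promoters in the table, 34.6% held CCAAT on either strand and 7.26% held CACGTG. Of 23 promoters matched to 18 genes of the list, 18 held CCAAT, 4 held CACGTG and 1 held TCACNCCAC, a sterol-element pattern found in 1.13% of all promoters. A match is a description of letters, not a site.

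MVD (ENSG00000167508, hg38 chromosome 16, 88651935 to 88663161, minus strand), the decarboxylase that makes isopentenyl diphosphate, had 94.8, 118, 90.02 and 144 CPM in RMC-7977 tumours, against 39.7, 35.98, 60.1 and 24.2 CPM in trametinib tumours. The groups did not overlap. That gave a log2 fold change of 1.48 ± 0.27 (SE; edgeR adjusted p = 0.0273), and 1.40 (edgeR adjusted p = 0.0488) without the 2 libraries. Vehicle tumours had 46.8 to 102 CPM (median 67.97), a range that met both drug groups, and the log2 fold changes against Vehicle were 0.63 ± 0.24 (SE; edgeR adjusted p = 0.285) for RMC-7977 and -0.85 ± 0.25 (SE; edgeR adjusted p = 0.105) for trametinib.

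INSIG1 (ENSG00000186480, hg38 chromosome 7, 155297776 to 155310235, plus strand) encodes the protein that holds SREBP in the endoplasmic reticulum and is itself an SREBP target. It had 90.1, 149, 153 and 154 CPM in RMC-7977 tumours, against 66.4, 50.8, 64.6 and 35.04 CPM in trametinib tumours. The lowest RMC-7977 tumour, tumour 1, was still above the highest trametinib tumour. The log2 fold change was 1.33 ± 0.27 (SE; edgeR adjusted p = 0.0317), and it fell short of the threshold without the 2 libraries, at 1.11 (edgeR adjusted p = 0.124). INSIG1 also missed it without trametinib tumour 4 alone (edgeR adjusted p = 0.0757), as did MVD (0.0535). With RMC-7977 tumour 1, 2 or 4 left out, the edgeR adjusted p of both genes was 0.0774 to 0.108.

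Of the other enzymes, MVK (mevalonate kinase) had 33.6, 45.4, 45.3 and 55.5 CPM in RMC-7977 tumours, against 21.9, 21.4, 29.96 and 12.2 CPM in trametinib tumours. The fitted log2 fold change was 1.07 ± 0.24 (SE; edgeR adjusted p = 0.0518), just outside the threshold, and the groups did not overlap. TM7SF2, a sterol reductase, had 11.3, 17.98, 15.3 and 26.8 CPM in RMC-7977 tumours, against 7.23, 8.06, 11.5 and 5.6 CPM in trametinib tumours, with a log2 fold change of 1.13 ± 0.27 (SE; edgeR adjusted p = 0.0612) and ranges that overlapped. Without RMC-7977 tumour 3 and trametinib tumour 4, 23 of the 24 genes were positive, the median was 0.71 and MVD was the only call. In that fit MVK had 0.88 (edgeR adjusted p = 0.157) and TM7SF2 1.07 (edgeR adjusted p = 0.149), both further from the threshold. When Vehicle tumour 1 and an SHP2 inhibitor tumour that also stood apart were left out too, a choice made after seeing the data, 7 of the 24 were called, all higher, in a fit that called 5.3% of all 17761 genes (3.59% higher, 1.71% lower). MVD, LSS, TM7SF2, MVK and INSIG1 were among them, with log2 fold changes from 0.88 for MVK to 1.53 for LSS. DESeq2 also called 7, all higher, and 4.32% of all genes (0.997% higher, 3.33% lower). Against Vehicle, the median of the 24 genes was 0.39 for RMC-7977 and -0.39 for trametinib.

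**Figure D4:**
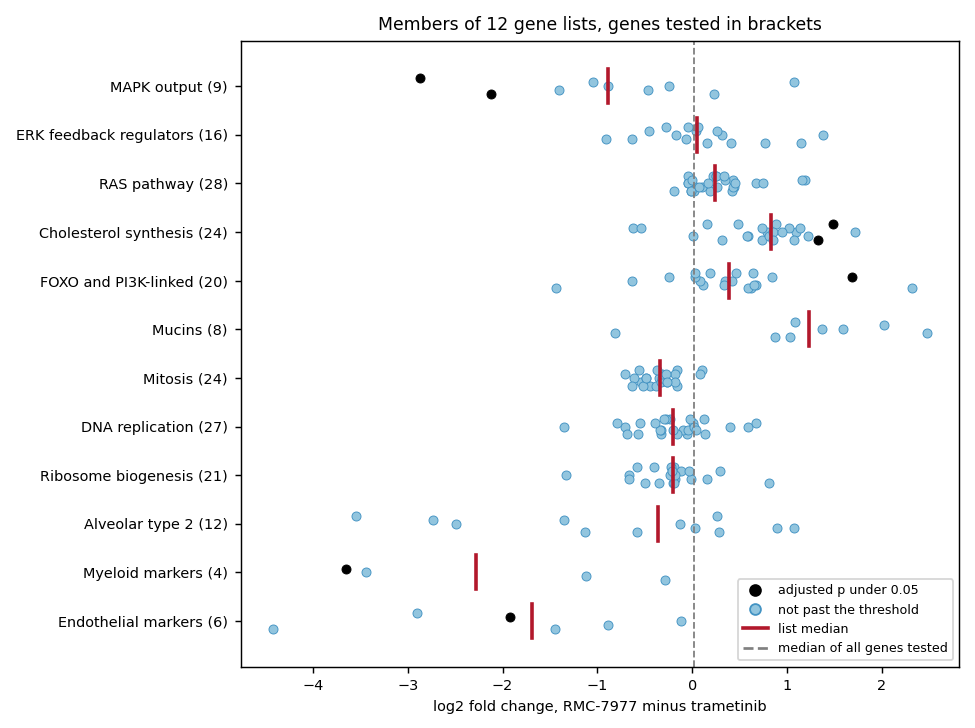
Log2 fold change (x axis, RMC-7977 minus trametinib) of each tested member of 12 gene lists, with black points for genes past the edgeR threshold, red bars for list medians and a dashed line at the median of all genes tested (0.02). The cholesterol list has its median at 0.83 and the mitosis list at -0.34.

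Transcripts read as MAPK output were mostly lower under RMC-7977. ETV4 and ETV5 fell, 7 of the 9 tested genes were below 0, and the median log2 fold change was -0.89, or -0.98 without the 2 libraries, where ETV4 alone passed. The level of the 9 genes, the mean of their log2 CPM, was 2.57, 2.68, 2.39 and 3.03 in RMC-7977 tumours, against 3.66, 3.47, 3.71 and 2.08 in trametinib tumours. Trametinib tumour 4 was the lowest of all 8, and the other 3 trametinib tumours lay above every RMC-7977 tumour. The means were 2.67 ± 0.27 (SD, n = 4) under RMC-7977, 3.23 ± 0.77 (SD, n = 4) under trametinib and 4.81 ± 0.37 (SD, n = 6) under Vehicle.

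ETV4 (ENSG00000175832, hg38 chromosome 17, 43527844 to 43579620, minus strand), an ETS factor of the PEA3 family, had 0.572, 1.11, 0.425 and 1.11 CPM in RMC-7977 tumours, against 9.49, 4.96, 8.14 and 0.96 CPM in trametinib tumours. Trametinib tumour 4 lay within the RMC-7977 range, and the other 3 trametinib tumours lay above it. The log2 fold change was -2.87 ± 0.58 (SE; edgeR adjusted p = 0.0313), and -2.99 (edgeR adjusted p = 0.0282) without the 2 libraries. The Vehicle range was 6.86 to 29.3 CPM (median 20.2), and the log2 fold changes against Vehicle were -4.49 ± 0.58 (SE; edgeR adjusted p = 0.000326) for RMC-7977 and -1.63 ± 0.48 (SE; edgeR adjusted p = 0.105) for trametinib.

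ETV5 (ENSG00000244405, hg38 chromosome 3, 186046308 to 186110318, minus strand), of the same family, had 1.43, 1.11, 1.45 and 3.73 CPM in RMC-7977 tumours, against 8.59, 7.09, 6.92 and 11.7 CPM in trametinib tumours. The groups did not overlap, with RMC-7977 tumour 4 highest in its group and trametinib tumour 4 highest in the other. The log2 fold change was -2.12 ± 0.40 (SE; edgeR adjusted p = 0.0273). Without the 2 libraries it was -1.82 (edgeR adjusted p = 0.104), and without trametinib tumour 4 alone its adjusted p was 0.0627. Set against Vehicle, ETV5 had log2 fold changes of -2.71 ± 0.38 (SE; edgeR adjusted p = 0.000736) for RMC-7977 and -0.59 ± 0.34 (SE; edgeR adjusted p = 0.341) for trametinib.

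The 7 other tested genes did not pass. DUSP6, an ERK phosphatase, had 1.43, 1.03, 1.78 and 1.45 CPM in RMC-7977 tumours, against 2.79, 3.28, 4.15 and 0 CPM in trametinib tumours, a log2 fold change of -0.89 ± 0.54 (SE; edgeR adjusted p = 0.382). Its 0 in trametinib tumour 4 lies below every RMC-7977 tumour, while the other 3 trametinib tumours lie above them. DUSP4, a phosphatase of the same family, had 104, 162, 109 and 128 CPM in RMC-7977 tumours, against 178, 194, 254 and 68 CPM in trametinib tumours, and a log2 fold change of -0.46 (edgeR adjusted p = 0.415). PHLDA1, lower in all RMC-7977 tumours, and SPRY4 had -1.40 (edgeR adjusted p = 0.118) and -1.05 (edgeR adjusted p = 0.423), and SPRY2, an inhibitor of receptor signalling, -0.24 (edgeR adjusted p = 0.515). EPHA2, an ephrin receptor and higher in all RMC-7977 tumours, went the other way at 1.07 (edgeR adjusted p = 0.222), as did CCND1, which encodes cyclin D1, at 0.23 (edgeR adjusted p = 0.726). ETV4 and ETV5 had edgeR adjusted p values of 0.023 to 0.13 with RMC-7977 tumour 1, 2 or 4 left out. SPRY2 and CCND1 change sign in some of the alternatives listed at the end, and neither is near the threshold.

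**Figure D5:**
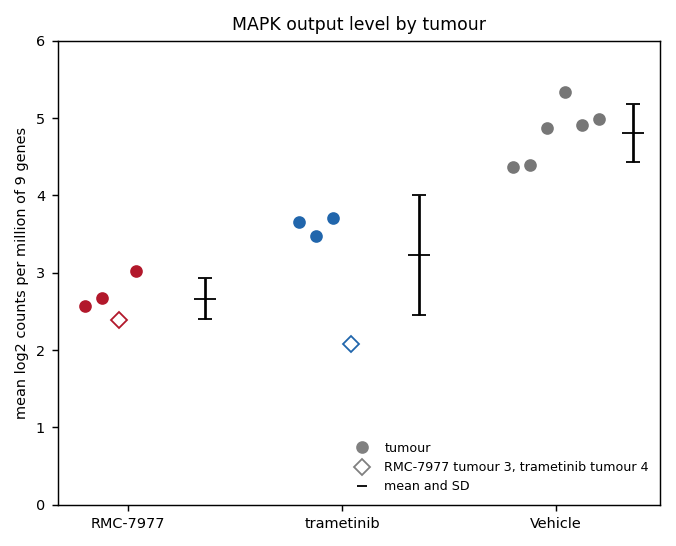
Mean log2 CPM of 9 MAPK output genes (y axis) in each RMC-7977 tumour (red), trametinib tumour (blue) and Vehicle tumour (grey), with the group mean and SD in black; open diamonds are RMC-7977 tumour 3 and trametinib tumour 4. The RMC-7977 tumours sit between 2.39 and 3.03, below 3 of the trametinib tumours and above trametinib tumour 4 at 2.08.

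The falls included a vitamin D enzyme, a prostaglandin enzyme, a protease of the IGF axis and a receptor kinase. CYP24A1 (ENSG00000019186, hg38 chromosome 20, 54153449 to 54173973, minus strand) encodes the enzyme that inactivates vitamin D. It had 2.57, 5.39, 2.12 and 4.43 CPM in RMC-7977 tumours, against 19.6, 29.5, 15.6 and 9.12 CPM in trametinib tumours. No RMC-7977 tumour reached the lowest trametinib tumour, which was tumour 4. The log2 fold change was -2.34 ± 0.41 (SE; edgeR adjusted p = 0.0271), and -2.37 (edgeR adjusted p = 0.023) without the 2 libraries. Vehicle tumours had 18.7 to 36.4 CPM (median 29.6), and the log2 fold changes against them were -2.97 ± 0.40 (SE; edgeR adjusted p = 0.000529) for RMC-7977 and -0.63 ± 0.36 (SE; edgeR adjusted p = 0.334) for trametinib.

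PTGS1 (ENSG00000095303, hg38 chromosome 9, 122370530 to 122395703, plus strand) encodes cyclooxygenase 1, which makes the prostaglandin precursor. It had 2.29, 2.38, 2.81 and 3.67 CPM in RMC-7977 tumours, against 10.02, 7.36, 13.1 and 10.2 CPM in trametinib tumours. The groups were well apart. On the log2 scale the fold change was -1.86 ± 0.34 (SE; edgeR adjusted p = 0.0273), and -1.86 (edgeR adjusted p = 0.0627) without the 2 libraries. It was the only call among 10 tested prostaglandin genes, whose median was -0.01. PTGER4, the prostaglandin E2 receptor EP4, had a log2 fold change of 1.30 ± 0.36 (SE; edgeR adjusted p = 0.0897) and higher values in all 4 RMC-7977 tumours.

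PAPPA (ENSG00000182752, hg38 chromosome 9, 116153804 to 116402322, plus strand), a metalloprotease that frees IGF from its binding proteins, had 6.96, 7.13, 6.29 and 6.29 CPM in RMC-7977 tumours, against 24.9, 19.1, 23.04 and 8.48 CPM in trametinib tumours. The 4 RMC-7977 tumours were close together and below all trametinib tumours. The difference was a log2 fold change of -1.51 ± 0.30 (SE; edgeR adjusted p = 0.0313), and -1.72 (edgeR adjusted p = 0.0194) without the 2 libraries. AXL, a receptor tyrosine kinase (ENSG00000167601, hg38 chromosome 19, 41219203 to 41261766, plus strand), had 8.68, 14.7, 15.9 and 6.71 CPM in RMC-7977 tumours, against 27.6, 30.2, 37.4 and 67.7 CPM in trametinib tumours. It was lower in all RMC-7977 tumours, with a log2 fold change of -1.82 ± 0.39 (SE; edgeR adjusted p = 0.0375), but missed the threshold without the 2 libraries at -1.66 (edgeR adjusted p = 0.105). For the genes CYP24A1, PTGS1, PAPPA and AXL, edgeR adjusted p was 0.0762 to 0.159 with RMC-7977 tumour 1, 2 or 4 left out, and AXL had 0.15 without trametinib tumour 4 and 0.0601 without RMC-7977 tumour 3.

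Genes best known from blood and vessel cells were among the falls too. LAPTM5 (ENSG00000162511, hg38 chromosome 1, 30732469 to 30757820, minus strand), a lysosomal protein of blood cells, had 0.0953, 0.396, 1.02 and 0.0692 CPM in RMC-7977 tumours, against 7.31, 2.92, 4.64 and 5.28 CPM in trametinib tumours. The groups did not overlap, at low levels. That gave a log2 fold change of -3.65 ± 0.68 (SE; edgeR adjusted p = 0.0273), and -4.67 (edgeR adjusted p = 0.0194) without the 2 libraries. PECAM1 (ENSG00000261371, hg38 chromosome 17, 64319415 to 64413776, minus strand), the adhesion molecule CD31 of endothelial and blood cells, had 5.15, 5.94, 19.5 and 7.12 CPM in RMC-7977 tumours, against 38.3, 26.4, 21.9 and 56.8 CPM in trametinib tumours. RMC-7977 tumour 3 was the highest of its group and just below the lowest trametinib tumour. The fitted log2 fold change was -1.92 ± 0.39 (SE; edgeR adjusted p = 0.0313), and -2.24 (edgeR adjusted p = 0.013) without the 2 libraries.

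MILR1, a receptor of mast cells that lies next to PECAM1 (ENSG00000271605, hg38 chromosome 17, 64449037 to 64468643, plus strand) and was picked after its values were seen, had 0.572, 0.554, 1.105 and 1.04 CPM in RMC-7977 tumours, against 16.8, 7.18, 3.5 and 12.96 CPM in trametinib tumours. It had a log2 fold change of -3.60 ± 0.66 (SE; edgeR adjusted p = 0.0273), and -3.63 (edgeR adjusted p = 0.0627) without the 2 libraries. TREM1 (ENSG00000124731, hg38 chromosome 6, 41267926 to 41286719, minus strand), a receptor of myeloid cells, had 4.86, 7.13, 8.84 and 6.92 CPM in RMC-7977 tumours, against 15.97, 20.1, 14.8 and 48.5 CPM in trametinib tumours and a log2 fold change of -1.83 ± 0.37 (SE; edgeR adjusted p = 0.0313). PROCR (ENSG00000101000, hg38 chromosome 20, 35172073 to 35216240, plus strand), the endothelial protein C receptor, had 1.33, 3.41, 3.31 and 2.01 CPM in RMC-7977 tumours, against 12.1, 7.002, 6.59 and 37.8 CPM in trametinib tumours and a log2 fold change of -2.63 ± 0.54 (SE; edgeR adjusted p = 0.0327). Both TREM1 and PROCR were highest in trametinib tumour 4. Without the 2 libraries they were at -1.42 (edgeR adjusted p = 0.0861) and -1.92 (edgeR adjusted p = 0.122). With RMC-7977 tumour 1, 2 or 4 left out, the edgeR adjusted p of LAPTM5, PECAM1, MILR1, TREM1 and PROCR was 0.0825 to 0.132, and without trametinib tumour 4 PECAM1 had 0.0867.

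The marker lists of those cell types are given beside these genes. The 10 myeloid markers summed to 7.34, 11.2, 8.84 and 8.58 CPM in RMC-7977 tumours, against 23.6, 15.7, 20.3 and 38.7 CPM in trametinib tumours and 12 to 27.2 CPM in Vehicle tumours. The ranges of the drug groups did not meet. Of 4 myeloid markers tested, LAPTM5 fell and the others, CD14, CSF1R and ITGAM, had -0.28 (edgeR adjusted p = 0.71), -1.12 (edgeR adjusted p = 0.241) and -3.44 (edgeR adjusted p = 0.132). ITGAM had -1.66 without trametinib tumour 4 (edgeR adjusted p = 0.667) and -1.29 (edgeR adjusted p = 0.602) without the 2 libraries. The defining markers CD68 and TYROBP were at 0 in every RMC-7977 tumour, and TYROBP also in every Vehicle tumour. The 9 endothelial markers summed to 70.1, 71.4, 110 and 102 CPM under RMC-7977, against 189, 97.6, 97.6 and 286 CPM under trametinib and 103 to 258 CPM under Vehicle, and the drug groups overlapped. None of the 9 was at 0 throughout a group. Of 6 endothelial markers tested, PECAM1 fell, while CDH5, the vessel cadherin, had -4.42 (edgeR adjusted p = 0.0847) with all tumours and -0.76 (edgeR adjusted p = 0.66) without the 2 libraries. All 6 were negative with all tumours, but 2 were positive and 4 negative without the 2 libraries. VWF went from -1.45 (edgeR adjusted p = 0.324) to 1.21 (edgeR adjusted p = 0.368), and TEK from -2.90 (edgeR adjusted p = 0.124) to -1.08 (edgeR adjusted p = 0.578). The part of such cells in these results was not tested.

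Several of the largest falls rested on trametinib tumour 4. In 21 of the 50 lower genes that tumour was over 3 times the highest other trametinib tumour. S100A2 (ENSG00000196754, hg38 chromosome 1, 153561108 to 153567890, minus strand), a calcium-binding protein of squamous and basal cells, had 8.87, 9.504, 9.61 and 4.77 CPM in RMC-7977 tumours, against 25.2, 25.2, 15.1 and 237 CPM in trametinib tumours. On the log2 scale the fold change was -3.20 ± 0.71 (SE; edgeR adjusted p = 0.0489), and -1.51 (edgeR adjusted p = 0.283) without the 2 libraries. DNAH5 (ENSG00000039139, hg38 chromosome 5, 13690331 to 13944543, minus strand), a dynein of motile cilia, had 2.29, 3.09, 1.87 and 2.905 CPM in RMC-7977 tumours, against 6.93, 9.57, 10.4 and 28.96 CPM in trametinib tumours. The difference was a log2 fold change of -2.44 ± 0.46 (SE; edgeR adjusted p = 0.0273), and -1.69 (edgeR adjusted p = 0.112) without the 2 libraries. Both genes were still lower in all RMC-7977 tumours than in any trametinib tumour.

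The extreme cases were picked after their values were seen. ZAN, which encodes a sperm protein, had 0.191, 0, 0 and 0.207 CPM in RMC-7977 tumours, against 0.603, 0.6204, 0.163 and 246 CPM in trametinib tumours, with log2 fold changes of -9.12 ± 1.87 (SE; edgeR adjusted p = 0.0327) and, without the 2 libraries, -1.73 (edgeR adjusted p = 0.488). FAM129C, a gene of B cells, had 0.286, 0.158, 0 and 0.138 CPM in RMC-7977 tumours, against 0.226, 0.6204, 0.326 and 263 CPM in trametinib tumours and log2 fold changes of -8.75 ± 1.91 (SE; edgeR adjusted p = 0.0436) and, without the 2 libraries, -0.99 (edgeR adjusted p = 0.719). POU2F2, a factor of B cells, had 4.099, 1.505, 1.27 and 2.697 CPM in RMC-7977 tumours, against 2.33, 3.01, 2.77 and 439.9 CPM in trametinib tumours. EBF1, another B-cell factor, had 2.002, 1.74, 0.595 and 3.39 CPM in RMC-7977 tumours, against 3.16, 2.84, 2.93 and 354 CPM in trametinib tumours. For all 4 genes only trametinib tumour 4 was high, and the other 3 trametinib tumours had at most 3.16 CPM. POU2F2 was the one called gene whose sign changed, with log2 fold changes of -5.54 ± 1.24 (SE; edgeR adjusted p = 0.0491) and, without the 2 libraries, 0.03 (edgeR adjusted p = 0.981). Those of EBF1 were -5.52 ± 1.23 (SE; edgeR adjusted p = 0.0491) and, without the 2 libraries, -0.31 (edgeR adjusted p = 0.788). Markers of lymphocytes, red blood cells and fat cells summed to 19.8, 53 and 34.1 CPM in trametinib tumour 4, and to at most 0.753, 0.886 and 4.4 CPM in the other 3 trametinib tumours. HBB and 3 other globin genes were at 0 in all 8 tumours. How that library came to differ was not tested.

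Other genes that rose included SYTL5 (ENSG00000147041, hg38 chromosome X, 38006582 to 38128819, plus strand), a Rab27 effector in vesicle traffic, with 37.1, 30.02, 30.9 and 30.4 CPM in RMC-7977 tumours, against 13.1, 14, 15.4 and 3.84 CPM in trametinib tumours. That gave a log2 fold change of 1.46 ± 0.31 (SE; edgeR adjusted p = 0.0375), and 1.198 (edgeR adjusted p = 0.0588) without the 2 libraries. ALDH3A1 (ENSG00000108602, hg38 chromosome 17, 19737984 to 19748943, minus strand), an aldehyde dehydrogenase, had 153, 197, 99.3 and 201 CPM in RMC-7977 tumours, against 64.3, 70.9, 81.98 and 35.04 CPM in trametinib tumours, with a log2 fold change of 1.37 ± 0.30 (SE; edgeR adjusted p = 0.0452) and 1.34 (edgeR adjusted p = 0.0538) without the 2 libraries. DENND3, an exchange factor for Rab proteins, had 75.4, 59.2, 39.8 and 69.6 CPM in RMC-7977 tumours, against 18.4, 23.1, 34.03 and 24.3 CPM in trametinib tumours, with a log2 fold change of 1.29 ± 0.27 (SE; edgeR adjusted p = 0.0327) and 1.43 (edgeR adjusted p = 0.0488) without the 2 libraries. FAM177B (ENSG00000197520, hg38 chromosome 1, 222737207 to 222750805, plus strand) had 61.5, 59.6, 34.9 and 56.8 CPM in RMC-7977 tumours, against 16.5, 22.2, 28.3 and 12.3 CPM in trametinib tumours, a log2 fold change of 1.42 ± 0.30 (SE; edgeR adjusted p = 0.0384), and 1.41 (edgeR adjusted p = 0.0627) without the 2 libraries. All 4 genes were higher in every RMC-7977 tumour than in any trametinib tumour. Without trametinib tumour 4 alone, ALDH3A1, DENND3 and FAM177B missed the threshold at edgeR adjusted p values of 0.128, 0.0839 and 0.115. With RMC-7977 tumour 1, 2 or 4 left out, these 4 genes had 0.0825 to 0.151.

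The other genes that passed with all 8 tumours but not without the 2 libraries were chosen here after their values were seen. Of those that rose, SCEL, a protein of the cornified envelope, had 228, 244, 196 and 203 CPM in RMC-7977 tumours, against 111, 96.1, 96.95 and 65.8 CPM in trametinib tumours. SYTL2, a Rab27 effector like SYTL5, had 79.3, 76.8, 57.5 and 63.6 CPM in RMC-7977 tumours, against 29.98, 38.9, 27.4 and 22.1 CPM in trametinib tumours. HERPUD1, a gene of the response to misfolded proteins in the endoplasmic reticulum, had 73.02, 61.2, 69.5 and 75.9 CPM in RMC-7977 tumours, against 32.2, 35.5, 44.5 and 16.96 CPM in trametinib tumours. None of the 3 genes overlapped between the groups, with log2 fold changes of 1.24 (edgeR adjusted p = 0.0341) for SCEL, 1.23 (edgeR adjusted p = 0.0354) for SYTL2 and 1.11 (edgeR adjusted p = 0.0328) for HERPUD1. In edgeR without the 2 libraries they had adjusted p values of 0.0974, 0.0903 and 0.0834.

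Of the other falls, BDNF, a neurotrophin, had 4.099, 3.96, 3.23 and 5.53 CPM in RMC-7977 tumours, against 8.89, 9.22, 7.16 and 16.3 CPM in trametinib tumours. BATF3, an AP-1 factor, had 0.763, 0.792, 0.85 and 0.968 CPM in RMC-7977 tumours, against 7.61, 3.63, 3.34 and 26.2 CPM in trametinib tumours, and CLDN10, a claudin of tight junctions, had 37.5, 50.5, 63.2 and 47.9 CPM in RMC-7977 tumours, against 78.6, 87.9, 73.3 and 156 CPM in trametinib tumours. Trametinib tumour 4 was the highest in all 3 genes, and the groups did not overlap. The log2 fold changes were -1.29 (edgeR adjusted p = 0.0313) for BDNF, -3.56 (edgeR adjusted p = 0.0273) for BATF3 and -0.99 (edgeR adjusted p = 0.0491) for CLDN10, against -0.89 (edgeR adjusted p = 0.13), -2.51 (edgeR adjusted p = 0.113) and -0.82 (edgeR adjusted p = 0.0639) without the 2 libraries. CACNA1A, a calcium channel subunit, had 276 CPM in trametinib tumour 4 and at most 2.48 CPM in the other 7, and its log2 fold change was -5.60 (edgeR adjusted p = 0.0491) with all tumours and -0.27 (edgeR adjusted p = 0.823) without the 2 libraries. LGALS7B has a near-identical copy and AL117332.1 is antisense to another gene, so with the counting's strand setting not given their calls are uncertain.

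A further set passed without the 2 libraries but not with all 8 tumours. HYAL1, a hyaluronidase, had 15.7, 29.7, 19.7 and 39.1 CPM in RMC-7977 tumours, against 6.03, 2.75, 5.54 and 20.3 CPM in trametinib tumours. Its highest trametinib tumour was tumour 4, and the log2 fold change was 2.56 (edgeR adjusted p = 0.0194) without the 2 libraries and 1.62 (edgeR adjusted p = 0.0932) with them. PTPRH, a receptor tyrosine phosphatase, had 55.5, 50.8, 24.1 and 60.3 CPM in RMC-7977 tumours, against 13.4, 12.7, 21.2 and 23.8 CPM in trametinib tumours, and log2 fold changes of 1.82 (edgeR adjusted p = 0.0488) without and 1.43 (edgeR adjusted p = 0.0771) with them. SOCS2, an inhibitor of cytokine signalling, had 17.2, 11.7, 16.9 and 13.1 CPM in RMC-7977 tumours, against 4.44, 5.14, 5.13 and 10.7 CPM in trametinib tumours. It reached 1.51 (edgeR adjusted p = 0.0488) without the 2 libraries, against 1.23 (edgeR adjusted p = 0.0822) with all tumours. NEK8, a kinase of cilia, had 1.22 (edgeR adjusted p = 0.0488) without and 0.52 (edgeR adjusted p = 0.418) with them, and its level of 23.04 CPM in trametinib tumour 4 was above all RMC-7977 tumours. Without trametinib tumour 4 alone, HYAL1, SOCS2 and NEK8 also passed, with edgeR adjusted p values of 0.0126, 0.0364 and 0.0439, and PTPRH passed without trametinib tumour 3 alone (edgeR adjusted p = 0.0394).

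Of the lower genes in that smaller fit, SLC22A3, a transporter of organic cations, had 15.3, 18.1, 34.6 and 21.7 CPM in RMC-7977 tumours, against 43.5, 45.8, 54.3 and 19.04 CPM in trametinib tumours. The fitted log2 fold change was -1.38 (edgeR adjusted p = 0.0194) without the 2 libraries and -0.86 (edgeR adjusted p = 0.123) with them. HAL, a histidine-degrading enzyme, had 8.199, 10.6, 17.4 and 13.1 CPM in RMC-7977 tumours, against 32.99, 26.5, 29.1 and 12.6 CPM in trametinib tumours, with -1.47 (edgeR adjusted p = 0.0488) without and -1.04 (edgeR adjusted p = 0.0996) with them. PRKAR2B, a regulatory subunit of protein kinase A, fell both ways, with 23.3, 23.1, 32.5 and 21.3 CPM in RMC-7977 tumours, against 49.8, 54.6, 47.7 and 43.4 CPM in trametinib tumours and log2 fold changes of -0.97 ± 0.20 (SE; edgeR adjusted p = 0.0375) and, without the 2 libraries, -1.17 (edgeR adjusted p = 0.023). TTC26, an intraflagellar transport protein, fell both ways at -0.95 (edgeR adjusted p = 0.0415) and -1.09 (edgeR adjusted p = 0.0487), and STOX1 had -0.94 (edgeR adjusted p = 0.0518) with all tumours and -1.09 (edgeR adjusted p = 0.0488) without the 2. With RMC-7977 tumour 1, 2 or 4 left out, PRKAR2B and TTC26 had edgeR adjusted p values of 0.0825 to 0.134.

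No gene of the RAS pathway passed. Of 28 tested genes of the RAS pathway edgeR called 0 (6 at an unadjusted p under 0.05, as had 18.2% of all genes, and 4 called higher by DESeq2, as were 0.997% of all genes). With all tumours 21 of the 28 were positive and the median was 0.24, and without the 2 libraries 17 were positive and the median was 0.11. RIT1, the RAS-related GTPase in the title of the series, had 143, 148, 161 and 126 CPM in RMC-7977 tumours, against 141, 133, 127 and 81.9 CPM in trametinib tumours, and the ranges overlapped. On the log2 scale the fold change was 0.26 ± 0.19 (SE; edgeR adjusted p = 0.462). NRAS had -0.19 (edgeR adjusted p = 0.767) and HRAS 0.02 (edgeR adjusted p = 0.958), and the MEK genes MAP2K1 and MAP2K2 had 0.25 (edgeR adjusted p = 0.469) and 0.42 (edgeR adjusted p = 0.337). The ERK gene MAPK3 had 0.74 (edgeR adjusted p = 0.104), and PTPN11, which encodes SHP2, had -0.04 (edgeR adjusted p = 0.933). The adaptor GAB2 had 1.19 ± 0.38 (SE; edgeR adjusted p = 0.116), and LZTR1, which targets RAS-related GTPases for degradation, had 22.9, 24.3, 16.5 and 26.8 CPM in RMC-7977 tumours, against 9.19, 12.1, 14.4 and 4.48 CPM in trametinib tumours with a log2 fold change of 1.16 ± 0.31 (SE; edgeR adjusted p = 0.0889). HRAS and PTPN11 lie so near 0 that their sign turns in several alternatives listed at the end. PPIA encodes cyclophilin A, the protein that RMC-7977 needs in order to bind RAS, and it had 1687, 1681, 2109 and 1523 CPM in RMC-7977 tumours, against 2104, 1699, 1501 and 5978 CPM in trametinib tumours. The 3 other trametinib tumours lay within the spread of the RMC-7977 tumours or below it, and the log2 fold change was -0.69 (edgeR adjusted p = 0.264) with all tumours and -0.12 (edgeR adjusted p = 0.817) without the 2 libraries.

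Feedback regulators and growth factor genes split in sign. For scale in the counts that follow, 18.2% of all genes had an unadjusted p under 0.05 and DESeq2 called 4.32%. None of 16 ERK feedback regulators passed in edgeR (4 at an unadjusted p under 0.05, 1 by DESeq2), 9 being positive, with a median of 0.05. SPRED1, an inhibitor of RAF activation, had 5.82, 4.83, 6.63 and 5.67 CPM in RMC-7977 tumours, against 13.9, 10.3, 10.6 and 8 CPM in trametinib tumours, without overlap and at -0.90 ± 0.23 (SE; edgeR adjusted p = 0.0801). DUSP5, an ERK phosphatase of the nucleus, had 16.2, 15.8, 11.2 and 14.1 CPM in RMC-7977 tumours, against 8.59, 8.69, 7.16 and 9.28 CPM in trametinib tumours and a log2 fold change of 0.77 ± 0.30 (SE; edgeR adjusted p = 0.185), with higher values in all RMC-7977 tumours. The 17 immediate early genes held no edgeR call (4 at an unadjusted p under 0.05, 1 by DESeq2), and FOSL1, an AP-1 subunit, had -2.66 (edgeR adjusted p = 0.0771) with all tumours and -0.94 (edgeR adjusted p = 0.449) without the 2 libraries. Among 8 EGF receptor ligands none passed in edgeR or DESeq2 (2 at an unadjusted p under 0.05), AREG having -1.05 (edgeR adjusted p = 0.203) and EREG -0.96 (edgeR adjusted p = 0.265). AXL was the only call among 16 receptor tyrosine kinases, whose median was 0.07, and EPHB2 had -2.38 (edgeR adjusted p = 0.0955).

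Genes of cell division were on the low side, without calls. Beside the counts below, 18.2% of all genes had an unadjusted p under 0.05, and DESeq2 called 4.32% of all genes, 3.33% lower. Of 24 mitosis genes 22 had negative log2 fold changes and the median was -0.34, and none passed in edgeR (6 at an unadjusted p under 0.05, 1 by DESeq2). TOP2A, a topoisomerase of dividing cells, had 292, 276, 331 and 265 CPM in RMC-7977 tumours, against 518, 453, 388 and 453 CPM in trametinib tumours. The groups did not overlap, and the log2 fold change was -0.64 ± 0.21 (SE; edgeR adjusted p = 0.119). AURKA and CCNB1, a mitotic kinase and cyclin, had -0.54 (edgeR adjusted p = 0.19) and -0.48 (edgeR adjusted p = 0.215). Of 27 DNA replication genes 19 were negative with a median of -0.20 and none passed in edgeR (7 at an unadjusted p under 0.05, 3 by DESeq2), RRM2, a subunit of ribonucleotide reductase, having 40.7, 50.4, 57.97 and 48.7 CPM in RMC-7977 tumours, against 91.8, 75.9, 67.2 and 84 CPM in trametinib tumours and -0.69 ± 0.21 (SE; edgeR adjusted p = 0.109). Of 21 ribosome biogenesis genes 18 were negative with a median of -0.20 and none passed in edgeR (4 at an unadjusted p under 0.05, 3 by DESeq2). Without the 2 libraries the medians were -0.56, -0.22 and -0.42 for the 3 lists in that order, against -0.02 over all genes. With the 4 libraries that stood apart left out, 8 mitosis, 3 replication and 4 ribosome biogenesis genes were called, all lower, where 1.71% of all genes were called lower.

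FOXO and PI3K-linked genes were mostly positive, 17 of 20, with a median of 0.38, and TSC22D3 was the one call. KLF2, a factor induced by FOXO, had 38.8, 46.8, 18.8 and 45.2 CPM in RMC-7977 tumours, against 6.48, 6.65, 14.6 and 1.76 CPM in trametinib tumours. Its values did not overlap between the groups, and the log2 fold change of 2.32 ± 0.53 (SE; edgeR adjusted p = 0.0514) lay just outside the threshold. Without the 2 libraries KLF2 had 2.24 (edgeR adjusted p = 0.0784), and without trametinib tumour 4 alone its edgeR adjusted p was 0.134. PIK3IP1, an inhibitor of PI3K, had 30.98, 39.8, 28.7 and 35.1 CPM in RMC-7977 tumours, against 15.3, 20.2, 20.8 and 19.04 CPM in trametinib tumours, without overlap and at 0.84 ± 0.25 (SE; edgeR adjusted p = 0.101). The median was 0.21 without the 2 libraries, with 13 of the 20 positive.

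Mucin genes had the highest median of the lists, 1.23 over 8 genes of which 7 were positive, but with wide spread. None passed in edgeR (6 at an unadjusted p under 0.05, as had 18.2% of all genes, and 2 called higher by DESeq2, as were 0.997% of all genes). MUC5AC, a gel-forming mucin, had 1515, 1357, 314 and 2684 CPM in RMC-7977 tumours, against 122, 215, 640.2 and 77.8 CPM in trametinib tumours, a log2 fold change of 2.48 ± 0.78 (SE; edgeR adjusted p = 0.115). RMC-7977 tumour 3 was low and trametinib tumour 3 high, so the ranges overlapped. MUC16, a membrane mucin, had 1294, 1156, 249 and 1619 CPM in RMC-7977 tumours, against 128, 241, 618 and 74.6 CPM in trametinib tumours and a log2 fold change of 2.02 ± 0.74 (SE; edgeR adjusted p = 0.157), with the same 2 tumours out of place. In Vehicle tumours MUC5AC ran from 153 to 2554 CPM (median 2289) and MUC16 from 87.4 to 1595 CPM (median 866). With the 4 libraries left out, MUC1, MUC5AC, MUC16 and MUC20 were called, all higher, where 3.59% of all genes were called higher.

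The remaining described lists held few calls. Over all genes, 18.2% had an unadjusted p under 0.05 and DESeq2 called 4.32%. HSPB1 was the only one of 14 heat shock genes called, and HSPA8, the constitutive HSP70, had 412, 526, 509.6 and 441 CPM in RMC-7977 tumours, against 979.7, 888, 718 and 1199 CPM in trametinib tumours, the opposite direction without overlap, with a log2 fold change of -1.003 ± 0.27 (SE; edgeR adjusted p = 0.0897). Of 12 alveolar type 2 genes none passed in edgeR or DESeq2 (3 at an unadjusted p under 0.05), and SFTPB, a surfactant protein, had 3.15, 0.871, 1.105 and 0.277 CPM in RMC-7977 tumours, against 1.05, 2.13, 28.98 and 30.4 CPM in trametinib tumours, high in 2 trametinib tumours only. Of 24 interferon-stimulated genes none passed in edgeR (8 at an unadjusted p under 0.05, 3 by DESeq2), OASL having 2.002, 3.64, 2.21 and 2.905 CPM in RMC-7977 tumours, against 16.4, 3.81, 11.8 and 23.5 CPM in trametinib tumours and -2.35 ± 0.55 (SE; edgeR adjusted p = 0.0582). Without the 2 libraries OASL had -1.90 (edgeR adjusted p = 0.24). Of 14 MHC class I genes none passed in edgeR (4 at an unadjusted p under 0.05, 1 by DESeq2). HLA-B and HLA-C, related genes whose shared reads the counting may split, stood at 5.78 CPM or less in all 8 tumours. Of 8 SOCS genes none passed in edgeR with all tumours (2 at an unadjusted p under 0.05, 1 by DESeq2). KRT19, a keratin of simple epithelia, had 1724, 1859, 1030 and 1750 CPM in RMC-7977 tumours, against 715, 952, 933 and 845 CPM in trametinib tumours without overlap and at 0.89 ± 0.25 (SE; edgeR adjusted p = 0.0955).

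The 17 lists not described above held 1 call in all, AXL among 13 YAP and TEAD targets. Their medians with all tumours ran from -3.06 for the 1 lymphocyte marker tested, which was at 0.73 without the 2 libraries, to 0.34 for 18 lysosome and autophagy genes, of which 14 were positive. No red blood cell marker passed the filter on low counts.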

How the data were processed

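RNA-seq of 22 H2110 tumours was deposited as a table of raw counts per gene for 58735 genes; the authors' normalisation, if any, is not in these values. Per the labels' protocols the libraries were strand-specific and made from total RNA. The submitters' processing notes list the build hg38, edgeR 3.22.5, DESeq2 1.20.0, featureCounts 1.5.0-p3, HISAT2 2.0.5 and fastp. Not given in the sources used here are the annotation release, the counting's strand setting, how multi-mapped reads were handled and whether host reads were removed. Gene positions are the file's, and all 58735 equal those of GENCODE release 29. GC content was available for 58676 genes.

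Tumours were grouped by their labels. The computations used R 4.3.3, edgeR 4.0.16 with TMM scaling, limma 3.58.1 and DESeq2 1.42.0. Genes were kept by filterByExpr with a minimum count of 10 over the 5 groups, 1 quasi-likelihood model was fitted to all 22 tumours, so that all groups share the estimate of spread, and Benjamini-Hochberg adjustment ran over all 17652 genes. Log2 CPM values use a prior count of 2, while fitted fold changes use the default prior count of edgeR. CPM values are counts over the TMM-scaled library size. Blank or summary lines were absent, and no column was left unmapped. No pair of libraries of a drug group agreed within sampling noise. The script was tested on simulated data.

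The genes named are the 8 largest rises and 8 largest falls among called protein-coding genes without overlap and with a mean log2 CPM of at least 2, the same without RMC-7977 tumour 3 and trametinib tumour 4, up to 4 members with the smallest p of each of 21 lists, and the MAPK and RAS genes described; genes outside the rule are said to be so. A few genes meeting the rule are not reported here. The comparison, its members and the 38 gene lists were chosen with earlier results of these data known. Alternatives left out each tumour, changed the scaling, filter, tool, tumours fitted and GC correction, and blocked on replicate number.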

Additional observations from a re-analysis of the deposited data

Results flagged for a closer look

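Of 92 groups of 4 tumours examined for a tumour far from the rest, over 42 genes and the library measures, 16 had one. Chance gives about 1 in 20 for independent groups. These groups share the same tumours, so the 16 cannot be weighed against that rate. Trametinib tumour 4 held 8 of the 16 and RMC-7977 tumour 3 held 4.

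In trametinib tumour 4, S100A2 had 237 CPM, against 15.1 to 25.2 CPM in the other 3, DNAH5 29 CPM, against 6.93 to 10.4 CPM, and TREM1 48.5 CPM, against 14.8 to 20.1 CPM. SOCS2 had 10.7 CPM there, against 4.44 to 5.14 CPM in the others, and PPIA 5980 CPM, against 1500 to 2100 CPM. The MAPK output level was 2.08 (mean log2 CPM), against 3.47 to 3.71, ribosomal protein genes took 25% of the counts, against 3.93% to 6.58%, and 1.99% of detected genes had 1 or 2 counts, against 19.1% to 19.9%.

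In RMC-7977 tumour 3, PECAM1 had 19.5 CPM, against 5.15 to 7.12 CPM in the other 3, PHLDA1 1.62 CPM, against 1.24 to 1.27 CPM, and MAP2K2 133 CPM, against 182 to 188 CPM. In the same library 5.02% of detected genes had 1 or 2 counts, against 18.5% to 18.7%. RMC-7977 tumour 1 was high for SYTL5, with 37.1 CPM, against 30 to 30.9 CPM, and low for INSIG1, with 90.1 CPM, against 149 to 154 CPM. RMC-7977 tumour 4 was low for S100A2, with 4.77 CPM, against 8.87 to 9.61 CPM, and high for ETV5, with 3.73 CPM, against 1.11 to 1.45 CPM.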

How the results depend on the processing

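The count of calls, 72 with all tumours, ran from 0 to 1288 with 1 tumour left out. It was 42 without RMC-7977 tumour 3 and trametinib tumour 4, 763 with DESeq2, 86 with RLE size factors, 16 with no filter on low counts and 62 with a mean CPM of at least 1. It was 199 with a GC correction and 5291 with limma voom and library weights, which gave trametinib tumour 2 a weight of 8.82 and trametinib tumour 4 one of 0.0529. The 199 held 68 of the 72 genes. With the GC correction the log2 fold change of HSPB1 went from 1.69 to 1.29 and that of MVD from 1.48 to 1.16, both still called. That of ETV4 went from -2.87 to -3.14, also called, and that of KRT19, not called, from 0.89 to 0.50. Fitting only the 8 tumours gave 0 calls in edgeR (1427 at an unadjusted p under 0.05), and only the 2 groups without those libraries gave 389. Leaving out the 4 libraries that stood apart, chosen after seeing the data, gave 941 calls, of which 58 were among the 72. The higher-to-lower split of 22 to 50 became 72 to 127 with the GC correction, 2886 to 2405 with voom, 257 to 132 in the 2 groups without those libraries and 637 to 304 without the 4. Same-numbered tumours did not vary together (correlations -0.10, -0.0006172, -0.31 and -0.13). The labels do not say what a number marks, and these 4 correlations cannot show whether the numbers pair tumours. The replicate block gave 0 calls (399 at an unadjusted p under 0.05), and 0 with the GC correction (555). Over the 116 named genes the alternatives kept direction and side of the threshold in 1826 cases, lost the call in 188, gained one in 235 and reversed in 34. None of the genes among the 116 that reversed was called with all tumours; POU2F2, which is not among them, was called and stood at 0.03 without the 2 libraries. Without the 2 libraries SOCS1 was 0.23, LAMP3 0.037 and VWF 1.21, with only those 2 groups 0.23, 0.0373 and 1.204, and without the 4 libraries 0.24, 0.045 and 1.21. With voom, EPGN was 0.48, LAMP3 0.16, ISG15 0.47, VWF 1.65 and CCND1 -0.12. HRAS was -0.022 with DESeq2, -0.026 with RLE, -0.0019 with the mean CPM filter, -0.038 with the 8 tumours, -0.0216 with the block, -0.45 with GC and -0.48 with both; PTPN11 was 0.046 with GC and 0.054 with both. Ranges with tumours left out were -1.06 to 0.25 for EPGN, -1.79 to 0.23 for SOCS1, -1.96 to 0.037 for LAMP3, -1.90 to 1.21 for VWF, -0.43 to 0.0027 for SPRY2, -0.054 to 0.45 for CCND1, -0.064 to 0.16 for HRAS, -0.32 to 0.11 for PTPN11 and -0.99 to 0.0056 for PPIA. The causes were not tested. The drug groups had 4 tumours each, and the common biological coefficient of variation was 0.3684.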
